A study of Mus musculus with 2 samples.

Results

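The cells described here are hepatic stellate cells of the injured liver that held little or no Acta2, the transcript of smooth muscle actin that is the usual marker of a myofibroblast. They came from the CCl4 library and were chosen by measured values: a cell had at least 2000 UMIs (unique molecular identifiers, each counting a captured mRNA molecule), at most 30% of them mitochondrial, at least 5 UMIs of Lrat, Reln, Colec11 and Rgs5 summed, at most 1 UMI of Acta2, at most 1 of the cycling genes Mki67, Top2a and Cdk1 summed, and at most 1 of the mesothelial genes Msln and Upk3b summed. This gave 1623 cells, which was 19.2% of the 8460 cells of that library and 24.7% of the 6573 that passed the depth and mitochondrial limits. Both libraries of the series together held 14757 cells. The members were compared with 482 cells of the same library that met the same gates but held at least 10 Acta2 UMIs. The first group is called Acta2-low and the second Acta2-high.

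Stellate cells lie between the hepatocyte plates and the sinusoidal endothelium, store vitamin A as retinyl esters and wrap the sinusoids as pericytes. In chronic injury they are the main source of hepatic myofibroblasts, which contract, deposit fibrillar collagen and secrete inhibitors of matrix proteases. Lrat makes the stored retinyl esters, Reln is a secreted glycoprotein, Colec11 is a collectin of innate immunity, and Rgs5 dampens G-protein signalling in pericytes.

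The series held 1 library of liver cells from mice given CCl4, a hepatotoxin that causes fibrosis when given repeatedly, and 1 from healthy mice. Both groups were Col1a2CreER:Rosa26tdTomato mice on a C57BL/6 background, so the healthy controls carried the same tamoxifen-dependent Col1a2-driven tracer, and no tracer transcript was among the genes counted. The livers were perfused with pronase and collagenase, the cells were enriched on a Nycodenz gradient and depleted of most CD45+ cells with beads, and the 10x 3' v2 chemistry was used. A recovery of this kind favours buoyant non-parenchymal cells, so shares of cells are shares of what was captured. The labels give neither the number of mice behind a library nor their ages or sexes, and with 1 library per group no difference between cells could be tested over animals. Values are therefore given with 95% counting intervals, which cover counting error only, and a gene is called higher or lower where its level differed at least 2-fold.

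Of 3120 cells with at least 5 UMIs of the 4 stellate genes, 2704 also passed the cycling and mesothelial limits. Acta2-low cells were 60.0% of these (58.2 to 61.9%, exact binomial interval), cells with 2 to 9 Acta2 UMIs were 22.2% (599 cells) and Acta2-high cells were 17.8% (16.4 to 19.3%). Of the members 1218 held no Acta2 UMI and 405 held 1. The limits cut through continuous distributions: 63 members had exactly 5 stellate UMIs and 66 had 6, against 71 excluded cells with 4, and 196 cells of the same gates held 2 Acta2 UMIs. At an equal depth of 2000 UMIs an Acta2 UMI was expected in 4.75% of the members, and in 5.47% of 201 cells of the library that held the leukocyte gene Ptprc and none of the stellate genes. By the choice of cells the members' Acta2 was no higher than in these leukocytes, whose median depth was 5734 UMIs against 13075 in the members.

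Single markers were found in most but not all members. A Colec11 UMI was found in 96.1% of them, a Reln UMI in 91.4%, a Lrat UMI in 83.2% and a Rgs5 UMI in 65.9%, and the corresponding shares of Acta2-high cells were 97.9%, 93.2%, 82.6% and 67.2%. All 4 genes were found in 936 members (57.7%), 3 in 400, 2 in 233 and only 1 in 54. These shares follow from the gate and are a description. Genes that the gate did not use were therefore read for the label. Dcn, a proteoglycan of mesenchymal cells, was expected at equal depth in 99.5% of members and in 34.7% of the Ptprc-positive cells. Pdgfrb, the PDGF receptor of pericytes, was expected in 55.6% against 2.17%, and Vipr1 in 22.8% against 0.238%. Hhip was near 0 in the members at 0.979 UMIs per 1000000, and was the only 1 of 16 stellate genes outside the gate below the level limit. The members therefore carried genes of the stellate list beyond those that chose them. A comparison with Ptprc-positive cells cannot tell stellate cells from other mesenchymal cells.

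Depth and quality differed between the groups. The median UMIs per cell was 13075 in members (2000 to 36550), 14545 in cells with 2 to 9 Acta2 UMIs and 16982 in Acta2-high cells (2586 to 48879), and a limit on raw Acta2 UMIs favours deep cells in the last group. All levels below were therefore scaled to 2000 UMIs in every cell, averaged over cells and written as CPM (counts per 1000000 UMIs). Members under 5000 UMIs numbered 198 (12.2%) against 4 of 482 Acta2-high cells (0.830%), and those 198 had a median of 17.8% mitochondrial and 3.15% ribosomal-protein UMIs, against 3.98% and 15.8% over all members. Transcripts of other cell types were seen in both groups: at least 3 endothelial UMIs were found in 130 members (8.01%) and 49 Acta2-high cells (10.2%), at least 3 hepatocyte UMIs in 166 (10.2%) and 49 (10.2%), and at least 3 UMIs of macrophage genes in 44 (2.71%) and 25 (5.19%). Their part in the results was not tested beyond the alternatives given after the report.

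The members differed at least 2-fold from Acta2-high cells in a small set of genes, and 12 of the lower ones belonged to the contractile list. Of 8196 genes with a mean level of at least 10 CPM, the gate genes left out, 46 (0.561%) were at least 2-fold higher and 57 (0.695%) at least 2-fold lower in Acta2-low cells, and the median log2 ratio over all of them was 0.07. The split of calls moved with the settings: 171 were higher and 74 lower with gates on rates, 32 and 65 with TMM factors, and 108 and 59 without the 50 most abundant genes. Of the 20 contractile and actin genes that passed the level limit (of 21 listed), 12 were lower, none was higher and the median log2 ratio was -1.17. The summed level of the list was 5858 CPM in members and 15513 CPM in Acta2-high cells, a ratio of 0.378 (0.370 to 0.386). Since Acta2 chose the groups and these genes are known to be made together with it, their lower level is a description of the choice and not an independent result.

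**Figure D1:**
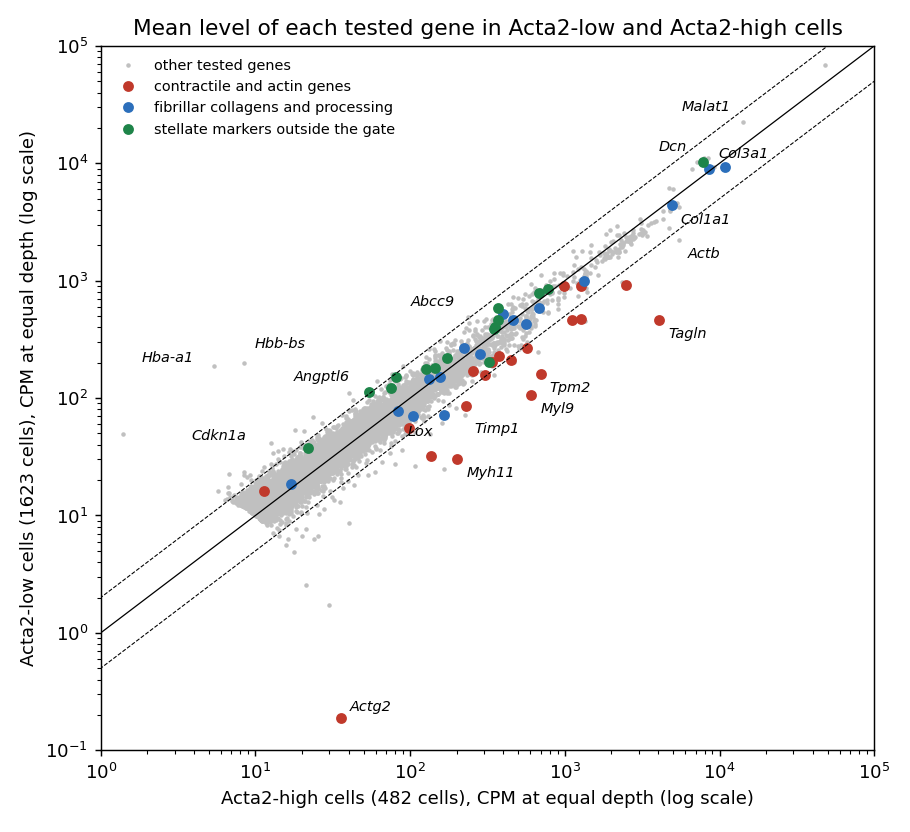
Mean level of each tested gene in Acta2-high (x axis) and Acta2-low cells (y axis), both in CPM at equal depth on log scales. Each point is 1 gene, and the dashed lines mark a 2-fold difference. All but 1 of the contractile genes in red lie under the diagonal, while Col1a1 and Col3a1 lie close to it.

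Tagln, an actin-bundling protein of smooth muscle, showed the widest gap among abundant genes. In single members it ran from 0 through a median of 289 to 4494 CPM, and in Acta2-high cells from 216 through 3135 to 33803 CPM, so the groups overlapped. Its mean was 463 CPM (440 to 487) in members and 4067 CPM in Acta2-high cells, a ratio of 0.114 (0.107 to 0.121). The members were not without it: a Tagln UMI was expected in 47.6% of them at equal depth, against 96.9% of Acta2-high cells and 6.08% of the Ptprc-positive cells.

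Motor and filament genes made up most of the other called genes of the list. Myl9, the regulatory light chain of smooth muscle myosin, ran from 0 through 69.4 to 1529 CPM in single members and from 0 through 507 to 5098 CPM in Acta2-high cells, with means of 106 and 609 CPM (ratio 0.174, 0.152 to 0.199). Myh11, its heavy chain, had means of 30.4 and 202 CPM and was at 0 in the median member. The tropomyosins Tpm2 and Tpm1, which lie along the actin filament, had ratios of 0.231 (0.206 to 0.259) and 0.372 (0.345 to 0.401). The cytoplasmic actins were lower as well: Actg1 had means of 463 and 1108 CPM (0.418, 0.386 to 0.452). Actb, which is not on the list, had means of 2207 and 5464 CPM (0.404, 0.390 to 0.419). Further called genes of the list were the light chain Myl6 (0.372), the calponin Cnn2 (0.372), the actin nucleator Lmod1 (0.234), the crosslinker Flna (0.471) and Tpm4 (0.471). Actg2, the enteric smooth muscle actin, had 4 UMIs in all members, 1 in each of 4 cells, and 266 in Acta2-high cells, where 9.54% of cells held it.

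Some genes of the same list differed less. Mylk, the kinase that activates myosin, had means of 897 and 982 CPM (ratio 0.913, 0.848 to 0.983), Cald1, which regulates actomyosin, 910 and 1266 CPM, and Vcl, an adhesion protein, 157 and 305 CPM (0.516, 0.446 to 0.597). Des, the intermediate filament protein long used to stain stellate cells, was at 205 and 325 CPM, and was the only 1 of the 15 tested stellate genes outside the gate with a ratio below 1 (0.630, 0.550 to 0.723). All 3 smooth muscle markers that passed the level limit (Myh11, Lmod1 and Actg2) were lower, with summed levels of 62.6 and 383 CPM, while Pln, a marker of vascular smooth muscle, was near 0 in both groups at 0.0968 and 0.117 CPM. Those summed levels moved with the contractile genes, and how many Acta2-high cells were vascular smooth muscle cells was not tested.

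The CArG box is the element bound by serum response factor, which drives many contractile genes. RefSeq start sites on GRCm38.p6 were available for 18 of the 21 contractile genes. The window searched ran from 250 bases before the start to 50 after it. Only exact matches to CCWWWWWWGG, with W for A or T, were counted as a box, and the pattern reads alike on both strands. A box was found in 5 of the 18 (27.8%: Actg1, Cnn2, Myl6, Myl9 and Vcl), against 488 of all 27025 symbols (1.81%). Those 5 boxes lay before the start, and Myl6 held its box at only 1 of its start sites. No box was found in 9 collagen genes or in 12 stellate genes with a start site. The 250 bases before the start are shown for Myl9, Cnn2 and Actg1, which are called contractile genes with a box. Those of Acta2 are shown as the gene of the gate. Each is read 5' to 3' on the gene's strand with the box in capitals. The Acta2 window holds no exact match, but it holds ccctatatgg and ccttgtttgg, which each differ from the pattern at a single base. Near matches of this kind were not counted for any gene. A match is a description of letters, not a bound site or a cause.
Myl9 (chr2:156775214-156775463, plus strand, box 161 bases before the start): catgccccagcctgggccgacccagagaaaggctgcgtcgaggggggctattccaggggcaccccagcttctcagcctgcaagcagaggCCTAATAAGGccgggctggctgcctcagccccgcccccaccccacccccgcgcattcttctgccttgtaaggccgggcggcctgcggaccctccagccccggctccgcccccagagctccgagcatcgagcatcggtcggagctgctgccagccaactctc
Cnn2 (chr10:79988350-79988599, plus strand, box 56 bases before the start): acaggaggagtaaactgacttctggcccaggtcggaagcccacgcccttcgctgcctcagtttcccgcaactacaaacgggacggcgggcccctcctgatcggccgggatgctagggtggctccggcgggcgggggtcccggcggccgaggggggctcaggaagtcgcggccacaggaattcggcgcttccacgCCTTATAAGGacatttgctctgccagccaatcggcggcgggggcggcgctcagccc
Actg1 (chr11:120348496-120348745, minus strand, box 90 bases before the start): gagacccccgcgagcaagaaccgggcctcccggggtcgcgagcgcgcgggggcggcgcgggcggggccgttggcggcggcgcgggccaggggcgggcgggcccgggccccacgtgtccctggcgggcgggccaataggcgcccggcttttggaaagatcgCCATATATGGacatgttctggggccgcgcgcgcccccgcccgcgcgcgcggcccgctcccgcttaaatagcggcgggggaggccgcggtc
Acta2 (chr19:34255374-34255623, minus strand, no box in the window): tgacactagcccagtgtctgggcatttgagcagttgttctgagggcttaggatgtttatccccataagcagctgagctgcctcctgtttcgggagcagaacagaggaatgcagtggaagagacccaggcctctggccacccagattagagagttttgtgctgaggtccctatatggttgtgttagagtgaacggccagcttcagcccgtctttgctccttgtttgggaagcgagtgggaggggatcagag

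Further genes lower in the members were on no list. S100a6, a calcium-binding protein, was at 458 CPM in members and 1347 CPM in Acta2-high cells (0.340, 0.315 to 0.366), the LIM protein Crip1 at 245 and 669 CPM, and the lectin Lgals1 at 983 and 2350 CPM (0.418, 0.396 to 0.442). Fbxl22, an F-box protein of striated muscle, was at 24.9 and 165 CPM, and Tnnt2, cardiac troponin T, at 26.2 and 108 CPM.

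Fibrillar collagen transcripts lay within 2-fold of the Acta2-high cells, and the summed level of the list was slightly lower in the members (26543 and 28907 CPM, 0.918, 0.906 to 0.931). Of 16 tested genes for fibrillar collagens and their processing, 15 lay within 2-fold, and the median log2 ratio was -0.13. Col1a1, the main chain of type I collagen, ran from 0 through a median of 3342 to 39331 CPM in single members and from 0 through 4337 to 19186 CPM in Acta2-high cells. Its means were 4373 (4301 to 4446) and 4903 CPM, a ratio of 0.892 (0.863 to 0.922), and the groups overlapped. The ratio was lower without the shallow members, as given below by depth. Col3a1 had means of 8916 and 8544 CPM (1.04, 1.02 to 1.07), Col1a2 145 and 133 CPM (1.08, 0.889 to 1.33) and Col5a1 461 and 465 CPM (0.990, 0.890 to 1.10). In cells of at least 5000 UMIs these ratios were lower too, at 0.954 (0.930 to 0.978), 0.867 (0.704 to 1.07) and 0.839 (0.751 to 0.938). The expected share of cells with a Col1a1 UMI at equal depth was 95.9% in members, 96.7% in Acta2-high cells and 24.5% in Ptprc-positive cells. The part of free RNA in these shares was not tested.

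Among genes that fold and crosslink collagen, Lox differed more than the collagen chains. Lox, which crosslinks collagen, was the only called gene of that list, at 72.3 CPM in members and 165 CPM in Acta2-high cells (0.438, 0.356 to 0.539). Serpinh1, the collagen chaperone, was at 985 and 1338 CPM (0.736, 0.690 to 0.786), and Sparc, a collagen-binding matricellular protein, at 9232 and 10856 CPM (0.850, 0.832 to 0.870). With only cells of at least 5000 UMIs, Lox had a ratio of 0.429, Serpinh1 of 0.778 (0.728 to 0.831) and Sparc of 0.912. The Serpinh1 and Sparc ratios were then no lower than that of Col1a1 (0.769, 0.743 to 0.796). Among 8 tested proteases and inhibitors, Timp1, an inhibitor of matrix metalloproteases, was lower, with means of 71.9 and 227 CPM (0.317, 0.262 to 0.382). Mmp2, a gelatinase, lay in the other direction at 440 and 241 CPM (1.83, 1.59 to 2.11), short of 2-fold. Of 16 matricellular and elastic matrix genes only Spp1 was lower, at 7.65 and 21.2 CPM and with 78 of its UMIs in a single member. Within 2-fold were Postn (0.700), Tnc (0.562), Ccn2 (0.622) and Fn1 (0.922). In cells of at least 5000 UMIs the ratios were 0.679, 0.474 (0.371 to 0.606), 0.576 and 0.816, so Tnc was past 2-fold there.

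The Col1a1 comparison depended on the depth of the cells. Members of 2000 to 5000 UMIs held 8668 CPM of Col1a1, those of 5000 to 10000 held 4613, and in the 3 deeper ranges the members held 3307, 4031 and 3952 CPM. Acta2-high cells, with only 4 cells under 5000 UMIs, held 4035, 4408, 4978 and 5423 CPM from 5000 UMIs up. The ratio was 1.14 (0.996 to 1.32) at 5000 to 10000 UMIs and 0.750, 0.810 and 0.729 in the deeper ranges. With the 198 shallow members and 4 shallow Acta2-high cells left out, it was 0.769 (0.743 to 0.796). The Tagln ratio lay between 0.0807 and 0.144 in the same 4 ranges and that of Abcc9 between 1.79 and 2.23.

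**Figure D2:**
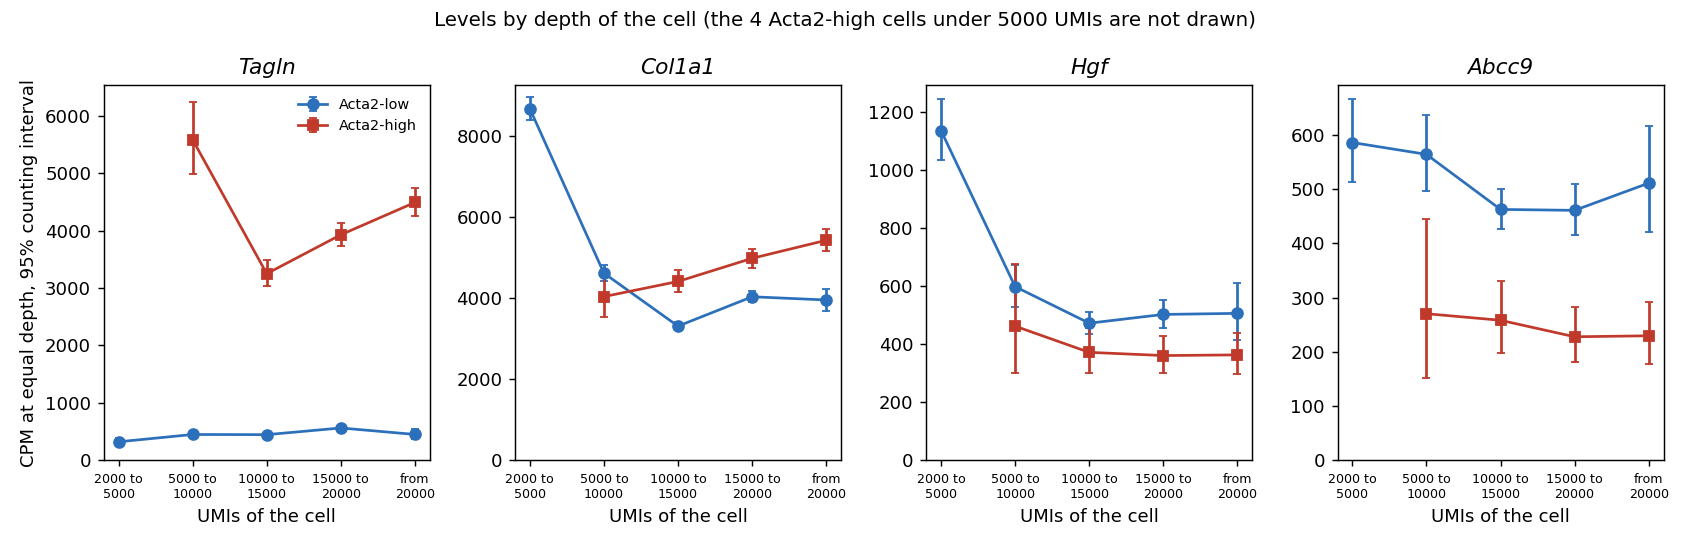
Levels of Tagln, Col1a1, Hgf and Abcc9 (y axes, CPM at equal depth, with 95% counting intervals) by the number of UMIs of the cell (x axis) in Acta2-low (blue) and Acta2-high cells (red). Tagln and Abcc9 stay apart in every range, whereas Col1a1 in members falls from 8668 CPM under 5000 UMIs to 3307 CPM at 10000 to 15000 UMIs.

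Stellate genes that the gate did not use were somewhat more abundant in the members. Of the 15 tested stellate genes outside the gate, 14 had a ratio above 1, only Angptl6 reached 2-fold, and the median log2 ratio was 0.36. The summed level of the list was 15026 CPM in members and 11771 CPM in Acta2-high cells. Angptl6, a secreted angiopoietin-like protein, was at 112 and 54.6 CPM (2.06, 1.54 to 2.80). Dcn was at 10355 and 7871 CPM (1.32, 1.28 to 1.35), Vipr1, the receptor of vasoactive intestinal peptide, at 153 and 81.3 CPM (1.88, 1.48 to 2.42), and Hgf, the growth factor for hepatocytes, at 582 and 369 CPM (1.58, 1.41 to 1.77). The Hgf ratio was 1.36 (1.21 to 1.53) in cells of at least 5000 UMIs. Among the gate genes, whose values chose the members and are no result, Lrat was at 393 and 268 CPM, Reln at 955 and 534, Colec11 at 1055 and 657 and Rgs5 at 709 and 465.

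Vitamin A genes did not follow a single direction. Of 8 tested genes for retinoid and lipid storage, 7 were within 2-fold, with a median log2 ratio of 0.06. Aldh1a2, which makes retinoic acid, was lower at 11.3 and 27.7 CPM. Rdh10, which oxidizes retinol, stood at 24.0 and 12.2 CPM, and Lpl, lipoprotein lipase, at 1157 and 971 CPM.

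Outside the haemoglobin genes described below, Sned1 and Abcc9 came first by the named-gene rule among those higher in members. Abcc9, a potassium channel subunit known from pericytes, ran in single members from 0 through a median of 417 to 3118 CPM and in Acta2-high cells from 0 through 188 to 1155 CPM. Its means were 495 (471 to 519) and 238 CPM, a ratio of 2.08 (1.81 to 2.40). The extracellular matrix protein Sned1 was at 110 and 40.5 CPM (2.71, 1.94 to 3.87), Mamdc2 at 95.4 and 43.0 CPM, and Ly6a, the surface antigen Sca-1, at 159 and 76.1 CPM, and these 3 and Abcc9 stayed above 2-fold in cells of at least 5000 UMIs. Ank3, a membrane adaptor, had a ratio of 2.10 over all cells and of 1.70 in cells of at least 5000 UMIs. Tmem56 and Plekha6 lay just under 2-fold at 1.98 and 1.85. The highest ratios of all, those of the haemoglobin genes Hba-a1 (34.7) and Hbb-bs (23.8), came from a single member that held 1464 of 1714 Hba-a1 UMIs (85.4%) and 1580 of 1860 Hbb-bs UMIs. The ratios of the noncoding transcripts Malat1 and Gm26917 rested on the shallow members: that of Malat1 was 1.60 over all cells and 1.21 in cells of at least 5000 UMIs, and that of Gm26917 was 2.29 and 1.21.

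Signalling genes mostly lay within 2-fold. None of 16 TGF-beta and PDGF genes was called, although 12 had a ratio above 1. Pdgfra, a PDGF receptor of fibroblasts, was at 298 and 173 CPM (1.72, 1.46 to 2.04) and Pdgfrb at 467 and 372 CPM (1.26, 1.12 to 1.41), while the ligands Tgfb2 (53.8 and 96.0 CPM) and Tgfb3 (37.5 and 59.8 CPM) were on the other side. None of 13 growth factor genes, 6 complement genes, 15 immediate early and heat shock genes, 8 interferon genes, 15 transcription factors, 11 basement membrane genes or 6 integrins was called, and their median log2 ratios were 0.10, 0.42, 0.22, 0.41, 0.23, 0.22 and 0.16. Among 9 tested chemokine and adhesion genes only Cxcl14 was lower (28.3 and 65.8 CPM), and Cxcl12, which retains leukocytes in tissue, was at 2490 and 1856 CPM. None of 5 tested portal fibroblast markers, 3 portal-zone and 4 central-zone stellate markers or 2 proliferation genes was called. Across 269 listed genes, 20 were called in all. Markers of cholangiocytes summed to 3.43 and 3.02 CPM in members and Acta2-high cells, of macrophages to 47.1 and 51.2, of other immune cells to 24.0 and 8.47 and of hepatocytes to 113 and 72.7, where Fabp1 was the only called gene. All 7 tested endothelial genes had ratios above 1, from 1.03 to 1.73, with summed levels of 194 and 133 CPM, so endothelial RNA moved with the genes higher in members, and its part in them was not tested.

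**Figure D3:**
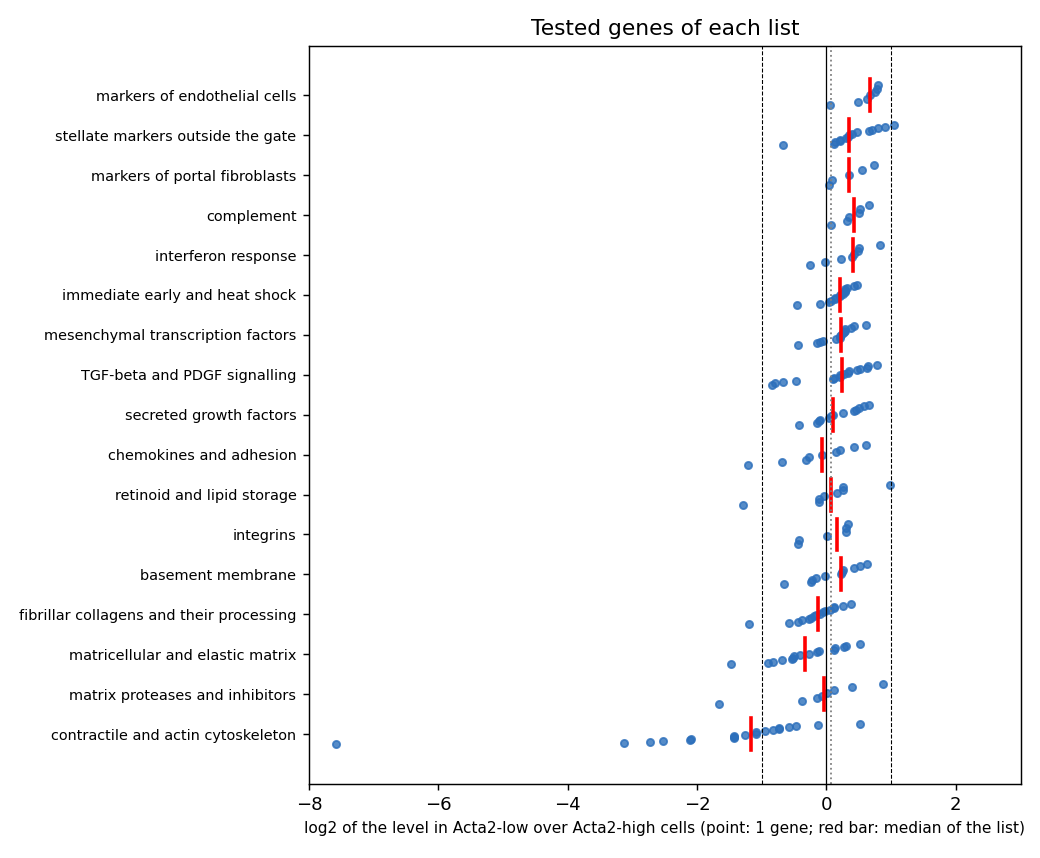
Each blue point is the log2 ratio of 1 tested gene in Acta2-low over Acta2-high cells (x axis), grouped by gene list (y axis), with a red bar at the median of the list, a dotted line at the median of all tested genes and dashed lines at 2-fold. The contractile list has its median at -1.17, whereas the other lists drawn have medians between -0.34 and 0.67.

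Mean levels changed over the Acta2 classes on both sides of the limits and not only across them. The classes are raw UMI counts, so their means cannot tell graded cells from a changing mix of cells. From the cells with 0 Acta2 UMIs through those with 1, 2 to 4, 5 to 9, 10 to 29 and 30 or more, Tagln was at 414, 609, 1049, 1571, 2579 and 5946 CPM. Myl9 went from 99.5 to 814 CPM, Actb from 2129 to 6419 and Timp1 from 66.6 to 283 across the same 6 classes. The members just inside the limit, with 1 Acta2 UMI, held more Tagln than those with 0 and less than the excluded cells with 2 to 4. Abcc9 ran the other way, from 512 to 188 CPM, as did Hgf (599 to 332), Mmp2 (448 to 213) and Dcn (10465 to 6739). Col1a1 moved from 4325 to 5188 CPM, a narrower span, in classes that include the shallow members with their high Col1a1. Without cells under 5000 UMIs the Col1a1 means were 3776 CPM in members and 4910 CPM in Acta2-high cells. Deeper cells fill the higher Acta2 classes, with a median of 12725 UMIs in the first and 18872 in the last.

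**Figure D4:**
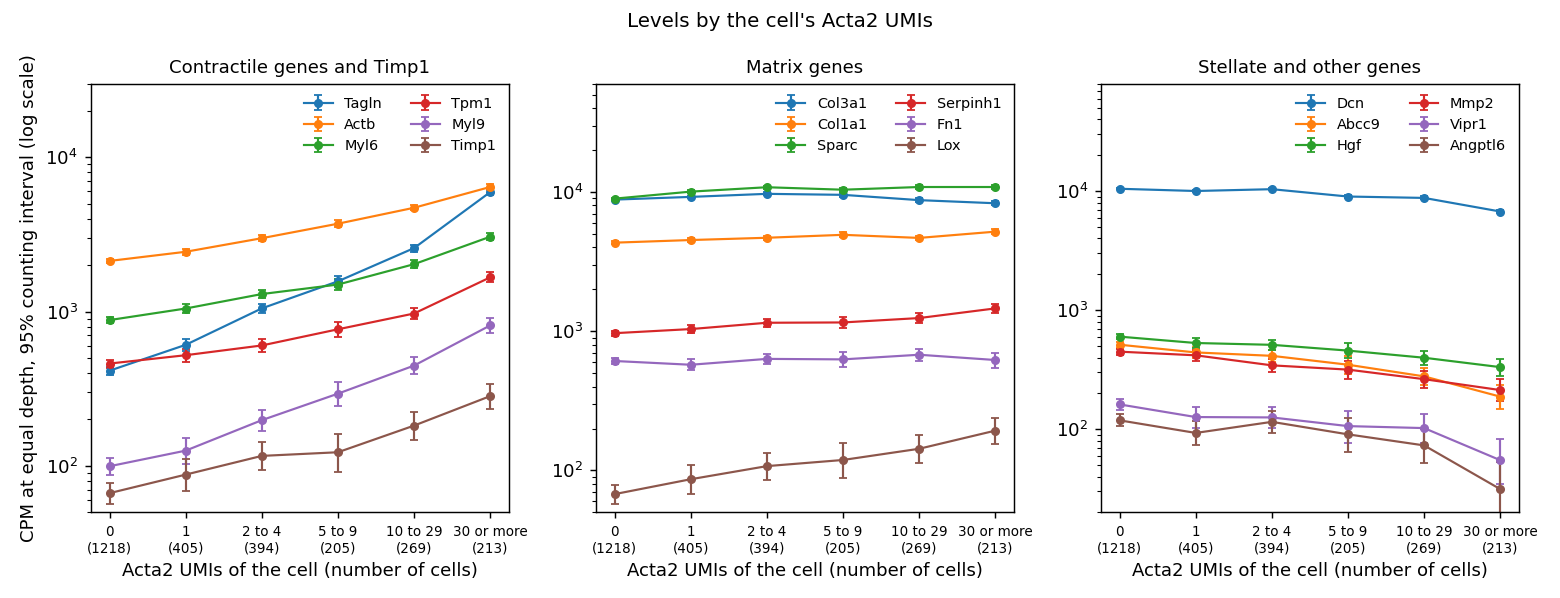
Mean levels (y axis, CPM at equal depth on a log scale, with 95% counting intervals) of 18 genes by the Acta2 UMIs of the cell (x axis, number of cells in brackets). Tagln climbs from 414 to 5946 CPM across the 6 classes, Col1a1 from 4325 to 5188 CPM, and Abcc9 declines from 512 to 188 CPM.

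The members were not uniform, and they divided along Rgs5 in genes other than the contractile ones. Among the 1425 members with at least 5000 UMIs, 720 (50.5%, 47.9 to 53.2%) held at least 5 Rgs5 UMIs, 495 (34.7%, 32.3 to 37.3%) held 0 and 210 held 1 to 4. Their depths were alike, with medians of 14179 and 13426 UMIs in the first and second class. The split was made after the values were seen, and Rgs5 is itself a gene of the gate, so the values below describe these cells and test nothing. Among 8306 genes, 288 (3.47%) were at least 2-fold higher and 363 (4.37%) at least 2-fold lower in the Rgs5-positive class, more than either count against Acta2-high cells. Of 478 Acta2-high cells with at least 5000 UMIs, 201 (42.1%) held at least 5 Rgs5 UMIs and 157 (32.9%) held 0, so the division was also present outside the members.

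The Rgs5-positive class held more of several stellate and secreted genes. Plvap, a protein of endothelial diaphragms that was abundant in these cells, had a median of 1471 CPM over single cells against 0 in the Rgs5-negative class, and its means were 1586 and 86.3 CPM (18.4-fold, 14.8 to 23.1). Angptl6 was at 205 and 4.55 CPM, the collectin Colec10 at 209 and 17.3 CPM, and Bco1, which cleaves carotenoids into retinal, at 148 and 10.7 CPM. Of the 15 tested stellate genes outside the gate, 7 were higher and none lower, with summed levels of 19949 and 9860 CPM. The endothelin receptor Ednrb (636 and 110 CPM), the Wnt amplifier Rspo3 (700 and 153 CPM), Tgfbi (1439 and 257 CPM) and Igfbp3 (537 and 174 CPM) belonged to the same class. The ligands of the BMP family Gdf2 (324 and 127 CPM) and Bmp10 (48.3 and 7.07 CPM) were higher there too.

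The Rgs5-negative class held more of other genes, which did not fill whole lists: lower in the Rgs5-positive class were 2 of 6 complement genes, 2 of 16 TGF-beta and PDGF genes, 4 of 13 growth factors (with 4 higher), 1 of 15 matricellular genes (with 3 higher) and 1 of 16 collagen genes (with 1 higher). Mfap4, a microfibril protein, was at 28.3 CPM in the Rgs5-positive and 380 CPM in the Rgs5-negative class, Ltbp2, which binds fibrillin, at 72.5 and 760 CPM, and Dpt, dermatopontin, at 226 and 897 CPM. Fgl2, a fibrinogen-like protein, was at 12.1 and 428 CPM and was found in 6.39% and 76.2% of cells. Wt1, a transcription factor best known from mesothelium and kidney, was at 15.7 and 193 CPM. The 4 mesothelial markers outside the gate summed to 19.5 and 197 CPM, nearly all of it Wt1, and the part of mesothelial RNA in this class was not tested beyond the limit on Msln and Upk3b. The adhesion protein Alcam (435 and 1993 CPM), the growth factor Igf1 (86.0 and 450 CPM), the complement genes C3 (81.6 and 414 CPM) and C4b (138 and 676 CPM), the Wnt ligands Wnt4 (55.0 and 238 CPM) and Wnt5a (44.9 and 183 CPM) and the protease Mmp2 (298 and 709 CPM) lay on the same side. Of 5 tested markers of portal fibroblasts 4 were lower in the Rgs5-positive class, and the list summed to 796 and 2215 CPM. Over all members the markers Thy1, Clec3b and Pi16 were at 6.81, 1.85 and 3.22 CPM, below the level limit. Those 3 values do not describe the Rgs5-negative class by itself.

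**Figure D5:**
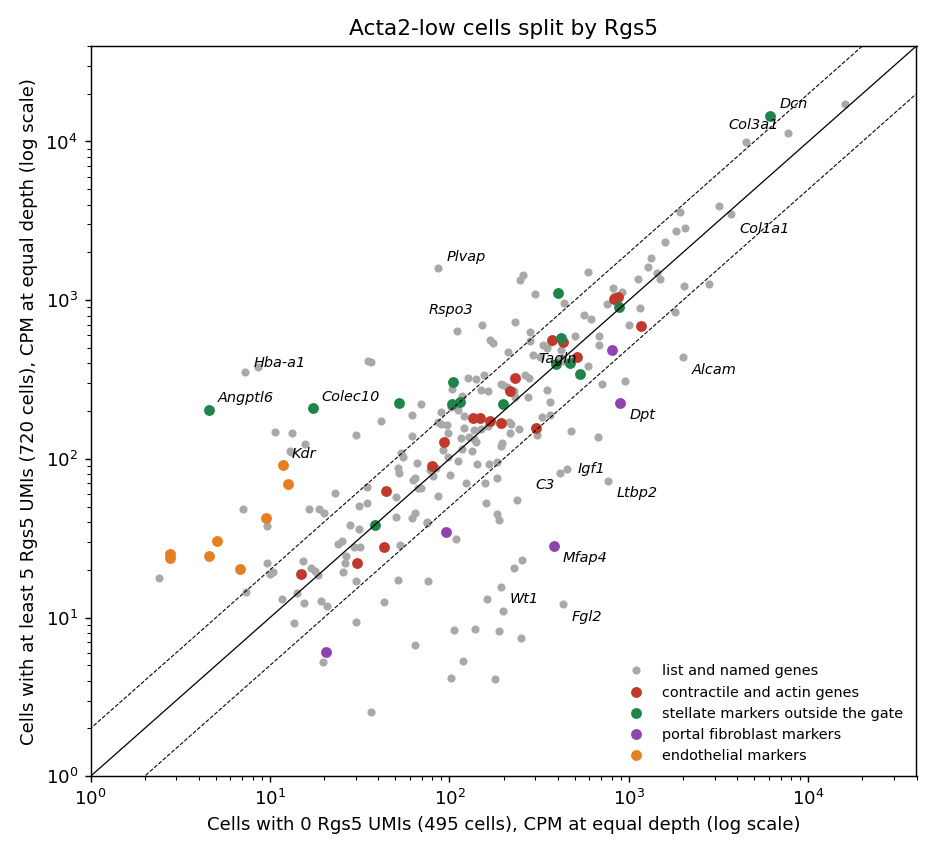
Mean levels of the listed and named genes in members with 0 Rgs5 UMIs (x axis) and with at least 5 (y axis), both in CPM at equal depth on log scales, with dashed lines at 2-fold. The contractile genes in red stay between the dashed lines, whereas the endothelial markers in orange lie above them.

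Contractile and collagen genes divided differently along this axis. Acta2 was at 18.5 CPM in both classes, Tagln at 565 and 374 CPM, and none of 19 contractile genes was called. Col1a1 was at 3468 and 3682 CPM (0.942, 0.902 to 0.983), while Col3a1 was at 9979 and 4494 CPM (2.22, 2.15 to 2.30), so that the chains of type I and type III collagen did not move together between the classes. Dcn was at 14552 and 6129 CPM and its relative Lum at 1267 and 2782 CPM. All 8 tested endothelial markers were higher in the Rgs5-positive class, with summed levels of 329 and 56.3 CPM, and Kdr was found in 12.9% and 3.64% of cells. Without the members that held at least 3 endothelial UMIs, 245 genes were higher and 399 lower. Hba-a1 and Hbb-bs were again higher through 1 cell that held most of their UMIs.

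Across the 1425 members, each scaled to the same depth, Plvap and Rgs5 had a Spearman correlation of 0.83, Alcam and Rgs5 of -0.70, and Wt1 and Plvap of -0.65. Col1a1 and Col3a1 had 0.65, and Col1a1 and Tagln -0.07. These points are cells of a single library that share its depth and free RNA, and the values are descriptions. When the same cells were cut into 3 equal groups of 475 by their summed rate of the 4 gate genes, Plvap was at 96.8, 851 and 1841 CPM from the lowest to the highest, Alcam at 1933, 859 and 431 CPM, and Col1a1 at 3567, 4631 and 3131 CPM. The rate of Rgs5 itself ran from 29.1 through 454 to 1550 CPM over these groups, so they largely repeat the split by Rgs5.

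Set within each Rgs5 class, the comparison with Acta2-high cells kept the contractile difference. The Tagln ratio of members over Acta2-high cells was 0.131 (0.121 to 0.143) in the Rgs5-positive class and 0.103 (0.0913 to 0.116) in the Rgs5-negative class, and the Timp1 ratios were 0.295 and 0.361. Abcc9 had 1.95 and 1.87 and Mmp2 2.07 and 1.85. The matrix genes did not behave alike. Col1a1 was at 3468 CPM in Acta2-low and 3448 CPM in Acta2-high cells of the Rgs5-positive class (1.01, 0.948 to 1.07), and at 3682 and 5961 CPM in the Rgs5-negative class (0.618, 0.584 to 0.653). Col3a1 had ratios of 1.19 and 0.618, Fn1 of 0.985 and 0.452, and Sparc of 1.04 and 0.738. Whether the ratio differs between the classes was not tested, since all these cells come from 1 library.

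Cdkn1a, the cell cycle inhibitor induced by p53, was higher in members than in Acta2-high cells (41.2 and 12.5 CPM, 3.29-fold, 1.83 to 6.52), and its UMIs were unevenly spread. It was found in 263 members (16.2%) and in 54 Acta2-high cells (11.2%), with up to 39 UMIs in a single member. At equal depth the expected share was 5.52% of members and 15.3% of Ptprc-positive cells, which express it too. Among members with at least 5000 UMIs, 145 held at least 2 Cdkn1a UMIs and 1170 held 0, a split made after seeing the data, with median depths of 13844 and 13516 UMIs. Of 8366 genes, 130 (1.55%) were at least 2-fold higher and 15 (0.179%) at least 2-fold lower in the first class. Of the 4 other listed arrest and p53 genes above the level limit, 2 were higher, and Cdkn1b (1.16) and Cdkn1c (0.914) were not called. The higher ones were Ccng1 at 126 and 39.8 CPM and Mdm2, which degrades p53, at 68.3 and 21.7 CPM. Further p53 targets were picked from the values. Phlda3 was short of 2-fold (1.82), Trp53inp1 was at 149 and 46.8 CPM, Bax, a promoter of apoptosis, at 312 and 115 CPM, and Btg2 at 622 and 257 CPM. By the named-gene rule the endothelial genes Ptprb (138 and 21.7 CPM, 6.37-fold) and Kdr (149 and 24.0 CPM, 6.20-fold) came first among genes higher in the same cells. Dnase1l3 (5.55-fold) and Aqp1 (4.37-fold) came next. Those ratios lay above those of the p53 targets given here. The part of endothelial RNA in this difference was not tested. Col1a1 was at 3903 and 3741 CPM and Tagln at 350 and 504 CPM.

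The healthy library offered few cells to set beside the members. In it 146 of 5044 cells passed the Acta2-low gates, but 121 of these held the epithelial gene Epcam, 120 the bile duct keratin Krt19 and only 15 a Lrat UMI, and 85 held only 1 of the 4 gate genes. Restricted to cells with at least 3 of the 4 genes, a choice made after seeing this, 14 healthy cells remained with 152594 UMIs, of which 8 held Kdr and 2 held Epcam. They were set beside the 1336 members with at least 3 gate genes, with UMIs summed. Lrat, whose level follows from the choice of cells, was at 400 CPM in the healthy cells and 448 CPM in the CCl4 cells (1.12-fold, 0.871 to 1.47), and Dcn was at 11069 and 11803 CPM. Col1a1 was at 308 and 3961 CPM (12.9-fold, 9.67 to 17.5), with its healthy UMIs in 2 of 14 cells, and Col3a1 at 800 and 9039 CPM. Col1a2, the other chain of type I collagen, went the other way at 177 and 111 CPM (0.628, 0.430 to 0.955). Its healthy UMIs lay in 6 of the 14 cells. Tagln was at 39.3 and 498 CPM (12.7-fold, 5.82 to 34.5), from 6 healthy UMIs in 4 cells. RNA of other cell types was heavy in the healthy cells: Spp1 was at 6907 CPM against 9.12 in the CCl4 cells, Alb at 2602 against 36.9 and the endothelial gene Clec4g at 1022 against 35.1, and 13, 13 and 11 of the 14 cells held them. Gm42418 (16.4-fold) and Lars2 (14.0-fold), neither on any list, were higher in the CCl4 cells by as much as Col1a1 and Tagln. Timp1 was not found in the healthy cells and was at 81.9 CPM in the CCl4 cells, at least 4.16-fold higher when the healthy level is set to 3 UMIs over the 14 cells, while the lower limit of the counting interval was 3.38-fold. Angptl6 (826 and 126 CPM) and Ecm1 (3191 and 868 CPM) were lower in the CCl4 cells. Injury, library, gene annotation and the animals cannot be told apart in this comparison, and no p-value can be given.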

How the data were processed

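Single-cell 3' v2 libraries of liver cells from healthy and CCl4-treated mice were analysed, 1 per condition. The deposited files hold raw UMI counts per gene and cell, made by the authors with Cell Ranger (3.1.0 and 6.0.1 are named in the sources), with 32285 genes in the CCl4 and 31053 in the healthy file. The submitters' processing notes name mm10 and GRCh38, and the gene identifiers in both files are mouse. Totals were 97611831 UMIs in 8460 CCl4 cells and 51122846 in 6297 healthy cells. The members, gene lists and comparisons were chosen with earlier results of these data known. The Rgs5 and Cdkn1a classes and the healthy cells with 3 markers were chosen after seeing the data.

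Each cell was scaled to 2000 UMIs (the expected counts after thinning), counts were averaged over cells and written as CPM, and cells under 2000 UMIs were left out. Shares at equal depth are the expected share of cells with a UMI among 2000. Since each group is cells of 1 library, no test was run. Exact Poisson intervals (95%) for levels, exact Clopper-Pearson intervals for shares and exact conditional binomial intervals for ratios cover counting error only. Genes with a mean of at least 10 CPM were called at 2-fold, leaving out the 10 gate genes. Named genes were the 15 in each direction whose ratio interval lay farthest from 1, at a mean of at least 50 CPM, and the genes of 27 lists (269 genes). Scripts were tested on simulated data. Doublets were scored with Scrublet (0.8% per 1000 cells), and members were not removed by score in the main comparison but in an alternative (573 cells, 93 members). Of the barcodes, 10 were in both libraries, 2 of them members. Python 3.11.15, numpy 2.4.6, scipy 1.17.1, pandas 2.3.3, scanpy 1.11.5, R 4.3.3 and edgeR 4.0.16 (TMM factors only) were used. Other settings varied depth, gates, doublets, scaling, filter and fold. Some named genes are not reported here.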

Additional observations from a re-analysis of the deposited data

How the results depend on the processing

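The number of members lay between 1141 and 1623 under the settings chosen at the start (1218 with 0 Acta2 UMIs). The count of genes at least 2-fold higher was the least stable: 46 became 171 with gates on rates per 10000 UMIs, 71 without the highest doublet scores, 98 without cells with at least 3 UMIs of other cell types, 108 without the 50 most abundant genes and 118 with only cells of 0 Rgs5 UMIs (an alternative added after seeing the data). A mean of at least 50 CPM left 9 higher and 30 lower, no filter on low values gave 3337 and 1528, 1.5-fold 553 and 216, and 3-fold 5 and 15. The 20 list genes called became 37 with gates on rates and 42 with no filter. All UMIs summed gave 35 higher and 56 lower, TMM factors 32 and 65, and at least 5000 UMIs 31 and 56. The share of higher genes among the calls, 44.7%, was 69.8% with gates on rates, 33.0% with TMM factors, 58.3% without cells with markers of other types, 64.7% without the 50 most abundant genes, 23.1% at a mean of at least 50 CPM, 68.6% without a filter and 58.1% at 0 Rgs5 UMIs; the cause was not tested. The median log2 ratio of all genes moved from 0.07 to 0.13 without the abundant genes and 0.16 without a filter. Log2 ratios of named genes moved by less than their counting interval in 771 cases and by more in 154. Tagln stayed between 0.0965 and 0.128, Timp1 between 0.284 and 0.400 and Abcc9 between 1.96 and 2.24, whereas Col1a1 ran from 0.688 to 1.07, Col3a1 from 0.696 to 1.23 and Gm26917 from 1.16 to 2.73. No paired analysis was possible because no test was run and each condition is 1 library.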
